A study of Hordeum vulgare with 64 samples.

Results

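The leaf response of barley (Hordeum vulgare) seedlings to 1 h of salt was compared between NN and TX. NN is the variety Nasonijo, which the study's methods call sensitive to salt and waterlogging, and TX is the variety TX9425, which they call tolerant of both. The comparison uses 8 of the 64 libraries of the series, chosen by their labels. These are 2 leaf libraries each of NN controls, NN after 1 h of NaCl, TX controls and TX after 1 h of NaCl. The labels name no transgene or introduced mutation for either variety. The seedlings of both varieties shared a pot in a greenhouse and were treated with NaCl at the same early leaf stage. The controls are titled as controls and were taken here as 0 h, so 1 h of salt and any later time of sampling cannot be told apart. The labels do not say how many plants went into a library. The methods speak of 3 biological replicates, but 2 libraries per group were labelled and measured. Nothing in the labels says that the replicates came from separate plantings, so p-values refer to the spread among the libraries at hand, part of which may be technical.

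Salt around the roots first lowers the water potential of the soil, and leaves lose turgor and slow their growth before much sodium has reached them. This early osmotic phase is known for abscisic acid signalling, stomatal closure and a quick change in the transcripts of stress genes, and sodium builds up in the blades later. An early leaf response may therefore follow a signal that began in the roots, which was not tested here. In bulk leaf RNA, fewer cells of a type and less RNA per cell cannot be told apart.

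The deposited values are FPKM, fragment counts scaled by gene length and library size. The genes carry HORVU or ENSRNA identifiers, and neither the files nor the reference table used here pairs them with names. Genes are therefore grouped by direction, level and variety, and 4 are named by identifier under a rule given with the processing. HvMADS14 (HORVU2Hr1G080490), a MADS-box transcription factor gene, is the one gene that the study's text pairs with an identifier of the form used in these tables. It was at 0 FPKM in 7 of the 8 leaf libraries and at 0.0038 FPKM in replicate 1 of the TX controls, and was not tested.

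The 8 libraries kept their tissue label. The 6 genes found in every waterlogging root and in no waterlogging leaf had a median of 0 FPKM in 7 libraries and of 0.0542 FPKM in replicate 1 of the TX controls, and the 40 genes found the other way round had a median of 24.7 to 34.2 FPKM. Variety markers, taken from the waterlogging roots, pointed to 1 library. The 20 genes found in TX alone averaged 0.800 FPKM in replicate 1 of NN at 1 h, with 5 of them above 0.5 FPKM, against at most 0.00135 FPKM in the other NN libraries and 4.40 to 8.90 FPKM in TX. The 25 genes found in NN alone averaged 3.20 to 5.17 FPKM in NN and at most 0.0333 FPKM in TX. Counts are therefore given below also without replicate 1 of NN at 1 h. Depth relative to replicate 1 of the NN controls was 0.576 to 1.09 and was lowest in that same NN library.

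After 1 h of salt 242 genes were higher and 673 lower in NN leaves, and 590 were higher and 1649 lower in TX leaves. A gene was called at an adjusted p under 0.05 in limma, run on log2(FPKM + 1) over the 16 salt leaf libraries, together with a log2 change beyond 1 in either direction. This scale understates the change of genes at low levels. Of 19782 genes tested, the calls were 4.63% in NN and 11.3% in TX. Their median size was 1.36 in NN and 1.35 in TX on the log2 scale. The HORVU class made up 19412 of the 19782 genes tested, 913 of the 915 calls in NN and 2218 of the 2239 in TX.

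The split between higher and lower genes turned with the scaling. As deposited, 26.4% of the calls were higher in each variety. With the libraries scaled to the median ratio of 10353 genes, 61.9% of 669 calls in NN (3.39% of those tested) and 66.1% of 1518 calls in TX (7.69%) were higher. The scaling factors were 0.828 and 0.836 in NN after salt against 0.983 and 1.06 in its controls, and 0.936 and 0.927 in TX at 1 h against 1.25 and 1.27 in its controls. As deposited, the median change of all genes was -0.15 in NN and -0.27 in TX, and after scaling it was 0.015 and -0.0022. Of the genes higher as deposited, 241 of 242 in NN and 585 of 590 in TX were called again. The factors were smaller at 1 h than in the controls, so scaling moved changes upward and could hardly remove these calls. Of the genes higher after scaling, 241 of 414 in NN and 585 of 1003 in TX were also called higher as deposited. Of the genes lower as deposited, 255 of 673 in NN and 515 of 1649 in TX were called again. Counts and medians of lower genes as deposited therefore include this shift.

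**Figure D1:**
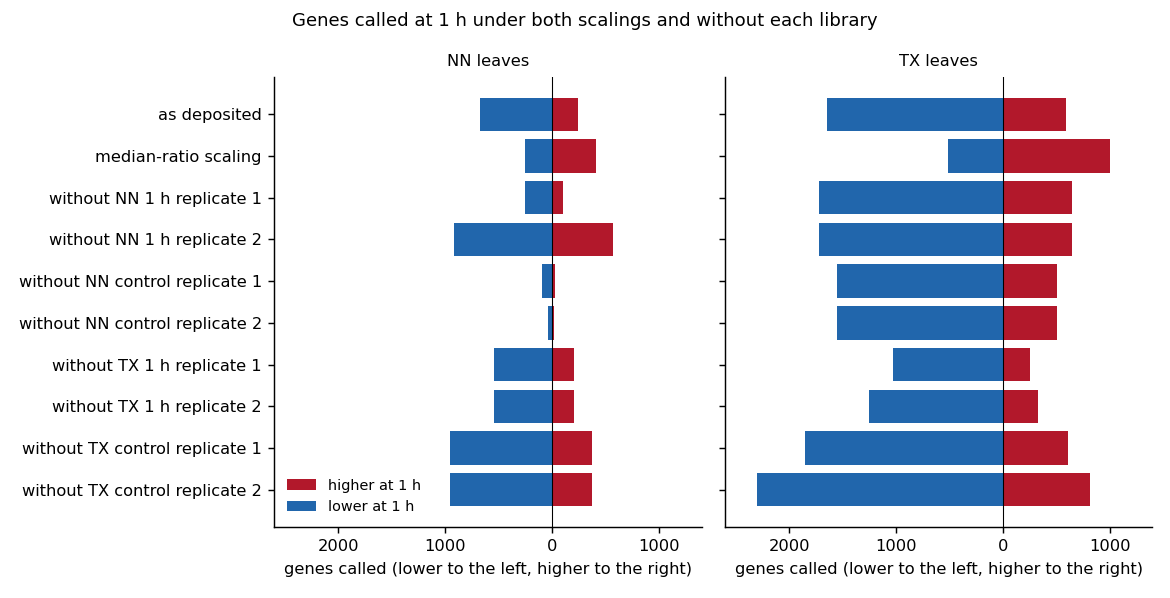
Genes called at 1 h in NN leaves (left panel) and TX leaves (right panel), with genes lower than control drawn to the left of 0 in blue and higher genes to the right in red, for the values as deposited, with median-ratio scaling and without each of the 8 libraries in turn. Scaling turns the split from 242 higher and 673 lower to 414 and 255 in NN and from 590 and 1649 to 1003 and 515 in TX, and the NN count falls to 120 and 60 without either of its controls.

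Abundant transcripts took a larger share of the libraries at 1 h. The 100 most abundant genes of each library held 28.5% and 32.3% of all FPKM in NN controls and 38.8% and 41.0% after salt. They held 21.6% and 26.8% in TX controls and 35.9% and 36.4% after salt, and in neither variety did the 2 groups overlap. The same was read from 100 genes chosen on other libraries, namely the most abundant ones in the waterlogging control leaves. Their share was 24.3% and 28.1% in NN controls and 35.3% and 37.4% at 1 h, and 16.7% and 22.7% in TX controls and 32.5% and 33.2% at 1 h. The share was lower in both TX controls than in both NN controls. Of these 100 genes 2 were called higher and 2 lower in NN (1.22% and 3.4% of all genes), with a median change of 0.25 against -0.15 over all genes. In TX 16 were called higher and 8 lower (2.98% and 8.34% of all genes), with a median of 0.61 against -0.27 over all genes. After scaling, the calls were 3 higher and 1 lower in NN (2.1% and 1.29% of all genes) and 34 higher and 3 lower in TX (5.08% and 2.61% of all genes).

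Along the range of levels the same shape appeared. Genes with a mean log2(FPKM + 1) between 2 and 6 had median changes of -0.22 to -0.28 in NN and -0.37 to -0.39 in TX. The 147 genes at 8 or above had medians of 0.10 in NN and 0.35 in TX. After scaling, the medians below a level of 6 lay between -0.034 and 0.048 in both varieties. At 8 or above they were then 0.40 in NN and 0.78 in TX, and 36 of 145 such genes were called higher in TX and 3 in NN, where 5.08% of all genes were called higher in TX and 2.1% in NN. The medians by level describe these libraries and were not tested.

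**Figure D2:**
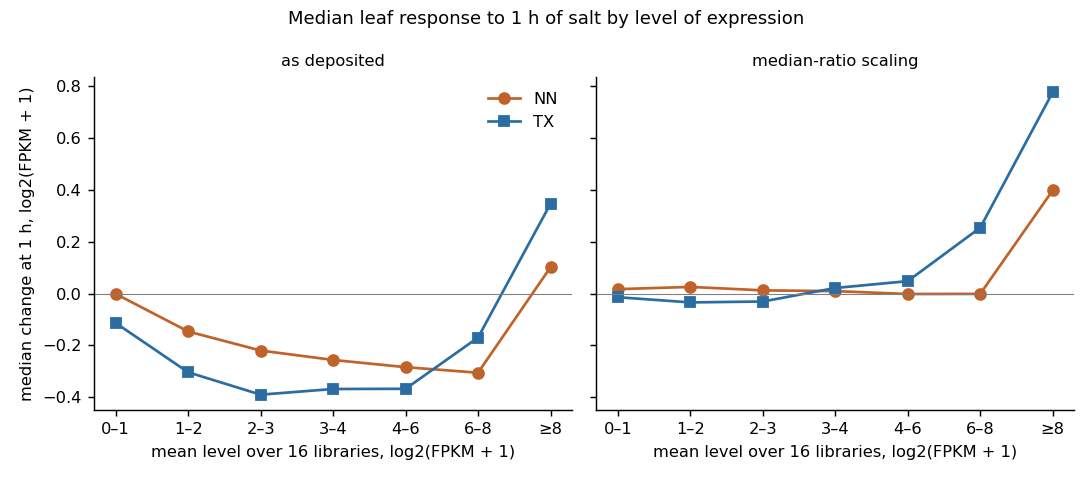
Median change from control to 1 h of salt (y axis, log2 scale) for genes binned by their mean level over the 16 salt leaf libraries (x axis, log2(FPKM + 1)), in NN (orange circles) and TX (blue squares), as deposited (left) and with median-ratio scaling (right). As deposited, only the genes at 8 or above lie above 0 in either variety, at 0.10 in NN and 0.35 in TX, while after scaling the bins below 6 lie within 0.048 of 0.

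A set of genes moved in both varieties. As deposited, 109 genes were higher and 287 lower in both, and 15 were called in opposite directions. The 109 are 45.0% of the NN list and 18.5% of the TX list, where 2.98% of all tested genes were higher in TX and 1.22% in NN. The 287 are 42.6% of the NN list and 17.4% of the TX list, where 8.34% of all tested genes were lower in TX and 3.4% in NN. NN and TX have separate controls, so their changes come from separate libraries. Seedlings of both varieties shared a pot, so these libraries also share growth conditions. The calls are not independent, since each gene's spread was estimated jointly from the libraries of both varieties. A gene with a small spread is more easily called in both lists, and its part in the overlap was not tested. With median-ratio scaling 194 genes were higher and 64 lower in both, where 2.1% of all genes were higher and 1.29% lower in NN, and 5.08% higher and 2.61% lower in TX. The 109 risers and 64 of the fallers were called with both scalings, and these are the shared genes described next. Without replicate 1 of NN at 1 h, 47 genes were higher and 113 lower in both varieties. The counts fell further to 19 and 60 without replicate 1 of the NN controls, and to 15 and 17 without replicate 2 of them, while without replicate 1 of the TX controls they were 192 and 432. They were 48 and 192 without replicate 1 of TX at 1 h. The mean response of both varieties, tested as a contrast of its own, called 1406 genes (7.11% of those tested), 420 higher and 986 lower.

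The 109 shared risers started low. Their median level was 1.35 and 0.934 FPKM in the NN controls and 14.4 and 12.5 FPKM in NN at 1 h. It was 2.66 and 0.892 FPKM in the TX controls and 16.7 and 13.2 FPKM in TX at 1 h. In 22 of the 109 every control was under 1 FPKM, and in 106 all 4 libraries at 1 h lay above all 4 controls. Their log2 changes ran from 1.05 to 5.997 in NN and from 1.06 to 5.87 in TX, and the change was the larger one in TX for 39 of them. For 1 of the 109 the difference between the varieties passed its own test, which 0.298% of all genes tested passed. The 64 shared fallers had medians of 15.2 and 16.1 FPKM in the NN controls and 4.09 and 3.56 FPKM at 1 h, and of 17.0 and 15.9 FPKM in the TX controls and 3.14 and 3.86 FPKM at 1 h. In 63 of the 64 all 4 libraries at 1 h lay below all 4 controls. Their fall was the larger one in TX for 48, and the TX minus NN difference was called in limma for 0 of them, with 4 at an unadjusted p under 0.05. The counts of larger changes in TX were taken as deposited. There the median TX minus NN difference over all genes was -0.12, and these counts include that shift. The members were chosen by their change in these same libraries, so a separation of 1 h from controls largely follows from that choice. The share of all genes with such a separation was not counted, and these levels are a description.

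Of the shared genes, 13 risers and 8 fallers were also called when any 1 of the 8 libraries was left out. Among the 13, HORVU4Hr1G076000 had the largest change in whichever variety it was smaller. It was at 0.0832 and 0.0884 FPKM in the NN controls, which is about 3 reads in each, and at 30.3 and 32.4 FPKM after 1 h of salt. In TX it was at 0.780 and 1.02 FPKM in the controls, about 30 and 40 reads, and at 166.9 and 72.7 FPKM at 1 h. Both libraries at 1 h stood far above both controls in each variety. TX lay above NN at both times, but neither gap was called, with adjusted p = 0.280 in controls and 0.121 at 1 h from limma. The log2 change was 4.90 in NN (standard error 0.50, adjusted p = 0.00157 by limma) and 5.87 in TX (standard error 0.50, adjusted p = 0.000894 from limma). The changes of the varieties were not shown to differ, with a TX minus NN difference of 0.98 (standard error 0.70, adjusted p = 0.535 from limma). In the later salt leaves, which are set against the same controls, the gene was at 45.2 and 42.3 FPKM in NN and 134.7 and 41.0 FPKM in TX at 24 h. At 10 d it was at 4.86 and 2.18 FPKM in NN and 7.70 and 9.20 FPKM in TX, still above the controls in every library.

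Other libraries showed how far HORVU4Hr1G076000 varied without salt. In waterlogging leaves the controls themselves were apart, at 23.6 and 0.129 FPKM in NN and 6.02 and 143.5 FPKM in TX. After 1 h of waterlogging they were at 29.8 and 66.6 FPKM in NN and 82.8 and 157.3 FPKM in TX. The control libraries of each variety thus lay far apart, and neither change was called, with adjusted p = 0.404 in NN and 0.674 in TX from limma. In salt roots the gene stayed at or below 3.47 FPKM in every control and 1 h library.

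Among the 8 fallers, HORVU5Hr1G106090 had the largest change by the same measure. It was at 37.7 and 51.7 FPKM in the NN controls and at 8.23 and 3.53 FPKM in NN at 1 h. In TX it was at 19.7 and 25.3 FPKM in the controls and at 1.75 and 1.69 FPKM at 1 h. The groups did not overlap in either variety, and TX lay below NN both before and after salt, with neither gap called as deposited (adjusted p = 0.0625 and 0.0860 from limma) and both called after scaling, at -1.23 and -1.41 (adjusted p = 0.0330 and 0.0475 from limma). The log2 change was -2.80 in NN (standard error 0.32, adjusted p = 0.00260 by limma) and -3.10 in TX (standard error 0.32, adjusted p = 0.000974 by limma). The difference of -0.30 (standard error 0.45, adjusted p = 0.796 from limma) did not pass, and it turned to 0.21 without replicate 1 of NN at 1 h. At 24 h the gene was at 0.417 and 0.428 FPKM in NN and 0.0300 and 0.295 FPKM in TX. At 10 d it was at 0.254 and 0.419 FPKM in NN and 2.46 and 1.31 FPKM in TX. It thus remained below its controls at all 3 times.

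The waterlogging leaves again differed. HORVU5Hr1G106090 was at 0.790 and 3.26 FPKM in NN and 0.463 and 0.120 FPKM in TX in the waterlogging controls. After 1 h of waterlogging it was at 4.04 and 4.81 FPKM in NN and 1.12 and 1.41 FPKM in TX. All 8 of these levels lay below every control leaf of the salt experiment, and no change was called, with adjusted p = 0.356 in NN and 0.524 in TX from limma. Levels were not tested across the salt and waterlogging tables, since each was normalized by itself.

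**Figure D3:**
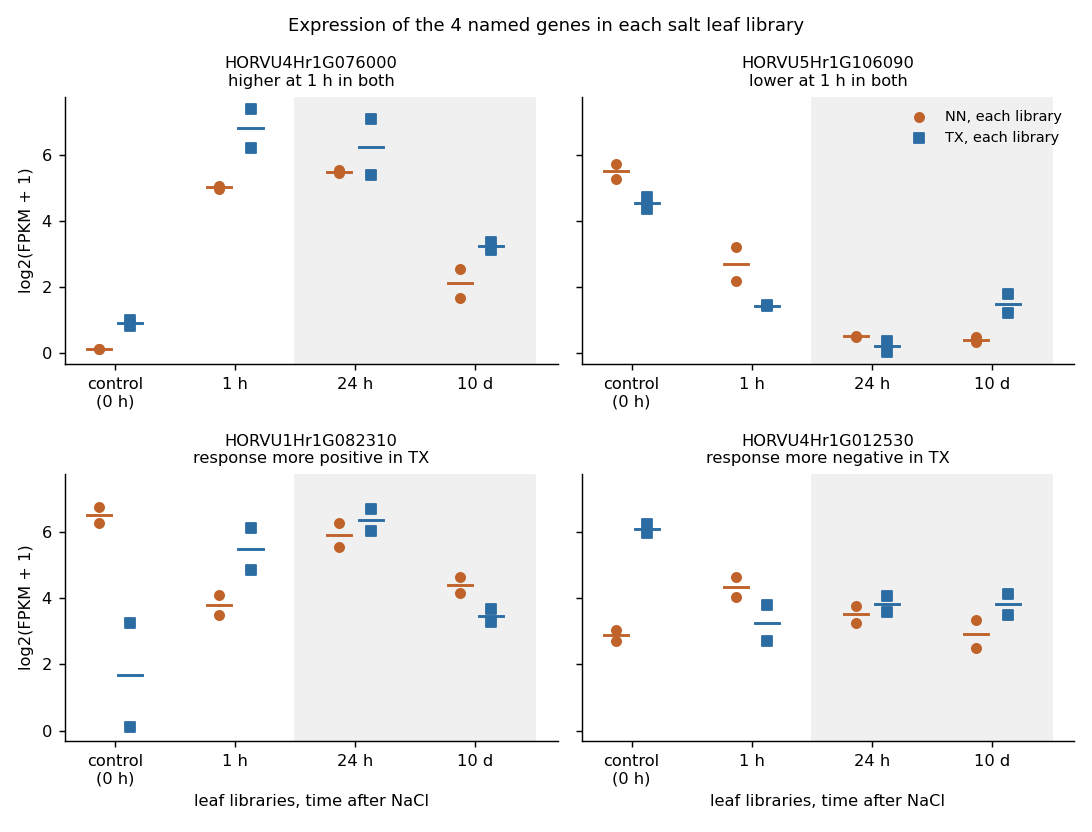
Level of the 4 named genes in each salt leaf library (y axis, log2(FPKM + 1)) at control, 1 h, 24 h and 10 d, in NN (orange circles) and TX (blue squares), with a bar at the mean of 2 libraries and the later times shaded. HORVU4Hr1G076000 rises and HORVU5Hr1G106090 falls at 1 h in both varieties, while HORVU1Hr1G082310 and HORVU4Hr1G012530 start apart in the controls and lie closer at 1 h.

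The shared genes were next read in libraries that had no part in choosing them. In salt roots at 1 h, 75 of the 109 risers were tested. Of these, 1 was called higher in NN and 8 in TX, where 0.0224% of all genes tested were called higher in NN roots and 0.82% in TX roots. Their median change was 0.38 in NN against -0.017 over all genes, and 0.63 in TX against 0.091 over all genes. In waterlogging leaves at 1 h all 109 were tested, 0 were called higher by limma (16 at an unadjusted p under 0.05) and 1 lower in NN, and 1 was called higher and 2 lower in TX. Over all genes in waterlogging leaves 0.0608% were called higher in NN and 0.0748% in TX by limma. The median change of the risers there was 0.72 in NN against -0.11 over all genes and 0.57 in TX against 0.069 over all genes. It was positive for 74.3% of them in NN and 68.8% in TX, against 39.6% and 55.4% of all genes.

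Calls were most frequent in waterlogging roots. There 71 of the risers were tested, and 22 were called higher in NN and 30 in TX, with 3 and 4 called lower. Over all genes in waterlogging roots 8.27% were called higher in NN and 11% in TX. The shared fallers were read in the same way. In salt roots 1 of 60 was called lower in NN and 3 in TX, where 0.0314% and 0.977% of all genes were called lower. In waterlogging leaves 0 of 64 were called lower by limma in either variety (8 in NN and 9 in TX at an unadjusted p under 0.05), where the background was 0.683% in NN and 0.641% in TX. In waterlogging roots 6 of 60 were called lower in each variety, against 7.61% and 7.21% of all genes. There 2 fallers were called higher in NN and 5 in TX, against 8.27% and 11% of all genes. The medians of the fallers lay between -0.26 and 0.11 in these comparisons.

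In the later salt leaves, which share the controls with 1 h, the risers had median changes of 1.31 in NN and 1.42 in TX at 24 h. Of the 109, 49 were called higher and 6 lower in NN then (2.61% and 3.74% of all genes), and 59 higher and 6 lower in TX (4.79% and 12.5% of all genes). At 10 d their median change was 0 in both varieties, with 18 called higher and 6 lower in NN (15.3% and 12.5% of all genes) and 25 higher and 3 lower in TX (8.15% and 7.83% of all genes). The fallers had medians of -0.78 in NN and -0.98 in TX at 24 h, against -0.077 and -0.35 over all genes. Of the 64, 17 were called lower and 1 higher in NN then, and 27 lower and 0 higher in TX by limma. At 10 d their medians were -0.25 and -0.26, against 0.0051 and -0.080 over all genes. There 14 were called lower and 8 higher in NN, and 12 lower and 4 higher in TX.

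The varieties were compared by a test of their own, since a call in one and not in the other does not show a difference. The test of the difference, the change in TX minus the change in NN, called 59 genes (0.298% of those tested), 40 with the more positive response in TX (0.202%) and 19 with the more negative one (0.096%). Of the 469 genes called higher in TX and not in NN, 20 passed it, and of the 1359 called lower in TX and not in NN, 11 did. Of the genes called in NN and not in TX, 4 of 130 higher and 8 of 374 lower genes passed. The genes higher in NN had a median change of 1.66 in NN and 1.10 in TX, and those lower in NN had medians of -1.30 and -0.93. The genes higher in TX had a median of 1.63 in TX and 0.39 in NN, and those lower in TX had medians of -1.29 and -0.66. After scaling, 446 genes were called lower in TX and not in NN, of which 7 passed the test of the difference. The genes lower in NN then had medians of -1.34 in NN and -0.59 in TX, and those lower in TX -1.29 in TX and -0.58 in NN. Each list was chosen on 1 variety, so these medians do not compare the sizes of the responses. With scaling 86 genes (0.436%) passed the test of the difference, 54 of them among the 59. Without replicate 1 of NN at 1 h 87 passed, 36 of them among the 59. The count was not stable. It was 0 without either NN control or without replicate 2 of TX at 1 h (1903, 2435 and 2466 genes at an unadjusted p under 0.05 in limma) and 1 without replicate 1 of TX at 1 h. It was 91 and 1617 without replicate 1 or 2 of the TX controls and 536 without replicate 2 of NN at 1 h. The replicate block gave 23, and a fit on the 8 libraries alone gave 0 in limma (2411 at an unadjusted p under 0.05).

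**Figure D4:**
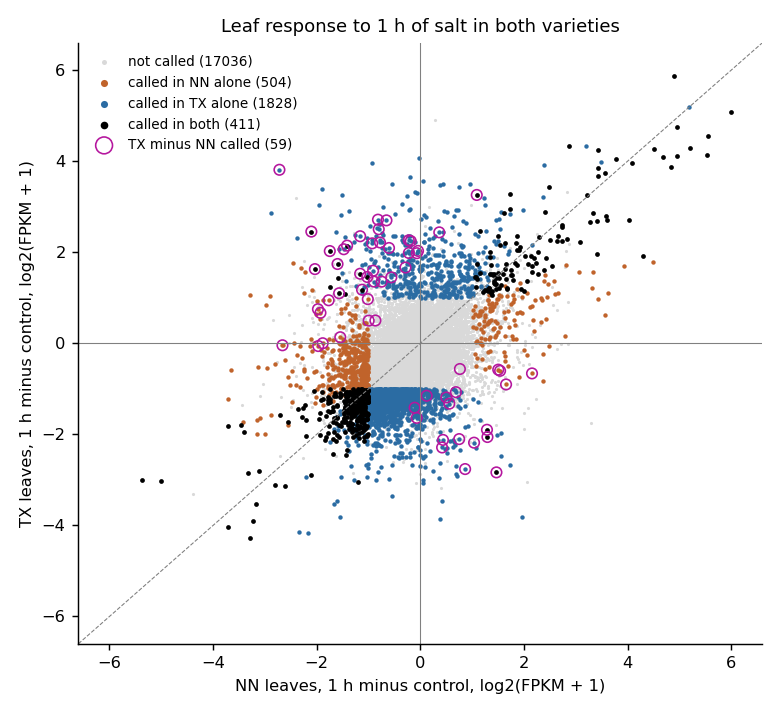
Change from control to 1 h of salt for each of 19782 genes in NN leaves (x axis) and TX leaves (y axis), on the log2(FPKM + 1) scale as deposited, coloured by where the gene was called, with a dashed line of equal change. In all, 504 genes were called in NN alone, 1828 in TX alone and 411 in both, and the 59 genes called for TX minus NN (rings) lie mostly in the quadrants of opposite sign.

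The levels behind the 59 differences were read in both groups. In 53 of the 59 genes the change had opposite signs in NN and TX. The 40 with the more positive response in TX had a median change of -1.01 in NN and 1.70 in TX, and the 19 with the more negative one had medians of 0.76 and -1.42. In the controls all 40 were lower in TX than in NN and all 19 were higher. Of all genes, 32.1% were lower in TX there. The gap between the varieties was the wider one in the controls for 36 of the 40 and 17 of the 19. For the 40, its median size was 2.05 in the controls and 0.80 at 1 h, and for the 19 it was 1.76 and 0.46. Without replicate 1 of NN at 1 h, the gap was the wider one in the controls for 42 of 69 and 12 of 18 genes, with median sizes of 1.92 against 1.26 and of 1.84 against 0.96. These gaps come from the contrast that chose the genes and are given without a test.

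The gap was also read in control libraries that had no part in choosing the genes. The salt root controls may come from the same seedlings as the leaf controls, since the study took both organs of each seedling, so they are not independent plants. In them 34 of the 40 were lower in TX (59.0% of all genes), with a median gap of -0.81 against -0.11 over all genes. Of the 19, 16 were higher, with a median gap of 1.06. The waterlogging controls come from a separate experiment. In its leaves 24 of the 40 were lower in TX (55.8% of all genes), with a median of -0.058 against -0.041 over all genes. Of the 19, 5 were higher, with a median of -0.16. In the waterlogging root controls the medians were -0.055 and -0.17. At 24 h of salt the 40 had a median gap of -0.18 and the 19 of 0.054, and at 10 d these were -0.19 and 0.32.

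HORVU1Hr1G082310 had the largest positive difference. It was at 77.0 and 106.9 FPKM in the NN controls and at 16.2 and 10.2 FPKM in NN at 1 h. In TX it was at 0.0810 and 8.51 FPKM in the controls and at 68.4 and 28.1 FPKM at 1 h. The TX controls were far apart, about 1 read against about 107, yet both lay below both NN controls and both TX libraries at 1 h. The log2 change was 3.81 in TX (standard error 0.79, adjusted p = 0.00742 by limma), and in NN -2.72 (standard error 0.79, adjusted p = 0.0562 by limma), which was not called. The TX minus NN difference was 6.53 (limma, standard error 1.12, adjusted p = 0.0444). The difference lost its call in 9 of 16 alternatives, over which its adjusted p ran from 0.000273 to 0.270.

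In waterlogging leaves HORVU1Hr1G082310 was not called in NN (-1.10, adjusted p = 0.752 from limma) or in TX (-0.70, adjusted p = 0.826 from limma). The control leaves were at 22.4 and 74.9 FPKM in NN and 30.0 and 88.7 FPKM in TX, and the leaves at 1 h at 40.0 and 8.44 FPKM in NN and 49.8 and 19.9 FPKM in TX. Replicate 2 was thus the higher one in the controls and the lower one at 1 h in both varieties. In the salt roots the gene was at 172.8 and 168.1 FPKM in NN controls and at 71.1 and 34.8 FPKM in TX controls, again lower in TX. At 1 h the salt roots were at 44.2 and 141.8 FPKM in NN and 157.5 and 121.0 FPKM in TX.

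HORVU4Hr1G012530 had the largest negative difference among the genes called for it. It was at 5.58 and 7.18 FPKM in the NN controls and at 24.0 and 15.4 FPKM in NN at 1 h. In TX it was at 74.5 and 61.3 FPKM in the controls and at 5.58 and 13.0 FPKM at 1 h. Most of these levels rest on few reads. At the smallest step seen for this gene, 0.732 FPKM, they would be 7.63 and 9.23 reads in the NN controls, 18.9 and 16.9 in NN at 1 h, 108.6 and 91.0 in the TX controls and 5.39 and 14.0 in TX at 1 h, and as several are not whole the read counts are uncertain. The order of the varieties was reversed, with TX the higher one in the controls and the lower one at 1 h, without overlap at either time. The gap was called in the controls, at 3.22 (adjusted p = 0.000682 from limma), and not at 1 h, at -1.08 (adjusted p = 0.279 from limma). The log2 change was 1.47 in NN (standard error 0.41, adjusted p = 0.0487 by limma) and -2.84 in TX (standard error 0.41, adjusted p = 0.00166 by limma). The TX minus NN difference was -4.30 (limma, standard error 0.58, adjusted p = 0.0190). The call of the difference was lost in 5 of 16 alternatives and that in NN in 8, while the fall in TX was called in all 16.

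A fall of HORVU4Hr1G012530 at 1 h was also called in TX salt roots. These roots may come from the same seedlings as the leaves, so they are not independent plants. In TX salt roots the gene was at 12.3 and 19.9 FPKM in controls and at 1.54 and 1.79 FPKM at 1 h. The log2 change was -2.65 (limma, standard error 0.32, adjusted p = 0.00661). NN salt roots were at 1.61 and 2.90 FPKM in controls and at 2.49 and 3.62 FPKM at 1 h, and were not called. The waterlogging control leaves held no such gap between the varieties, at 8.83 and 2.48 FPKM in NN and 8.76 and 2.28 FPKM in TX. After 1 h of waterlogging the leaves were at 1.67 and 3.33 FPKM in NN and 1.80 and 3.65 FPKM in TX.

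Over all genes the leaf libraries of the varieties lay closer at 1 h than in the controls. The level of TX against NN was called different for 1795 genes in the controls (9.07% of those tested, 1037 higher and 758 lower in TX) and for 330 genes at 1 h (1.67%, 166 higher and 164 lower). Scaling left 1459 and 372, and leaving out replicate 1 of NN at 1 h gave 1905 and 474. After scaling, 481 genes were higher and 978 lower in TX in the controls, and 151 were higher and 221 lower at 1 h. The direction of the split in the controls thus turned with the scaling. These contrasts of levels were added after the libraries had been compared. The count in the controls ran from 641 to 3330 and that at 1 h from 186 to 597 when each of the 8 libraries was left out in turn.

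The correlations across genes had the same order. Each pair of NN and TX libraries at 1 h correlated at 0.933 to 0.943, and each pair of NN and TX controls at 0.867 to 0.925. Replicates correlated at 0.989 in NN controls, 0.904 in TX controls, 0.937 in NN after salt and 0.978 in TX after salt. Some libraries were nearer to another group than to their own replicate. Replicate 1 of NN at 1 h correlated at 0.941 with replicate 1 of TX at 1 h, and replicate 2 of the TX controls at 0.925 with replicate 2 of the NN controls. Salt and control libraries of a variety could also be nearer than replicates. Replicate 2 of NN at 1 h correlated at 0.941 with replicate 1 of the NN controls. Replicate 2 of the TX controls correlated at 0.914 with replicate 2 of TX at 1 h. Genes are not independent replicates, and libraries of a pot share their growth conditions, so these values describe the libraries only. The part of the TX-only genes in replicate 1 of NN at 1 h was not tested beyond leaving that library out.

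**Figure D5:**
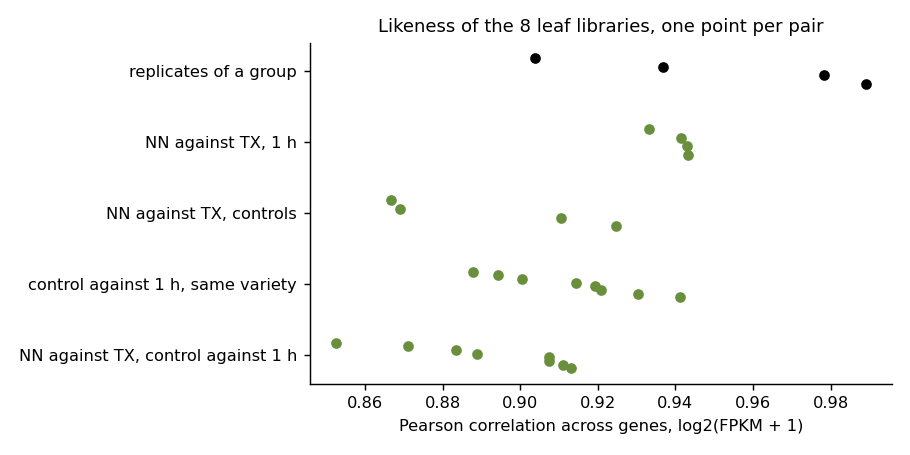
Pearson correlation across genes on the log2(FPKM + 1) scale (x axis) for each pair of the 8 leaf libraries, 1 point per pair, by the kind of pair (y axis), with replicates of a group in black and other pairs in green. The 4 pairs of NN and TX libraries at 1 h lie at 0.933 to 0.943, above the 4 pairs of controls at 0.867 to 0.925 and above the replicate pair of the TX controls at 0.904.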

How the data were processed

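The authors deposited FPKM per gene and library, in 1 table for salt and 1 for waterlogging. Per the submitters' processing notes, the tools included featureCounts 1.5.0, HISAT2 and HISAT. A genome build was not given in the sources used. FPKM hold no totals, so relative depth was taken from the steps between low values. Other sheets held 82 more columns of values that were left out. Libraries were grouped by their titles. Genes reaching 0.5 FPKM in 2 or more of the 16 salt leaf libraries were fitted on log2(FPKM + 1) with 8 group means in limma 3.58.1 under R 4.3.3, with a trended variance prior and Benjamini-Hochberg adjustment over all of them. Roots and the waterlogging table were fitted apart in the same way. The script was tested on simulated data. With 2 libraries against 2, an exact permutation test of 1 gene cannot go below p = 0.333, so only the model across all genes was used. The comparison, lists and rules were chosen with earlier results of these data known. Named genes were the first in each direction by smaller change among shared genes called with both scalings and in every leave-one-out, and the first in each direction by TX minus NN change, with HvMADS14 added. Replicate numbers were checked as pairs. Group deviations of same-numbered libraries correlated over 0.1 in 4 of 28 pairs of groups, from -0.31 to 0.26, so they were not taken as pairs. Figures were drawn with Python 3.11.15, pandas 2.3.3 and matplotlib 3.10.9.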

Additional observations from a re-analysis of the deposited data

Results flagged for a closer look

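Between the varieties, the response to 1 h of salt differed for 59 genes by the test of TX minus NN in limma, which is why they stand here. This count ran from 0 to 1617 when single libraries were left out, was 0 without either NN control (1903 and 2435 genes at an unadjusted p under 0.05) and was 23 with the replicate block. HORVU1Hr1G082310 differed by 6.53 and HORVU4Hr1G012530 by -4.30 on the log2 scale in that test (adjusted p = 0.0444 and 0.0190 from limma). Both are described in the report by their levels in every library. With 2 libraries per group, no group was large enough for the search for single samples far from the rest.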

How the results depend on the processing

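The rule that named the shared genes already required a call with median-ratio scaling and in every leave-one-out, so those alternatives could not fail. The named shared genes kept direction and call in each variety under all 16 alternatives. Their TX minus NN difference, never called, turned to -0.61 for HORVU4Hr1G076000 with a pseudocount of 0.1, and for HORVU5Hr1G106090 to 0.35 with scaling and replicate 1 of NN at 1 h dropped and to 0.21 without that library alone (range over single libraries left out -0.81 to 0.21). A pseudocount of 0.1 gave 18 genes for TX minus NN, 2546 for the mean response and 23.7% higher among TX calls. No filter on low values gave 37 for TX minus NN and 24.3% higher in TX. Scaling gave 258 genes shared in direction and 61.9% and 66.1% higher in NN and TX. Equal totals over HORVU rows gave 29.2% higher in TX. A fit on the 8 libraries alone, which has fewer samples to estimate the spread, called 105 genes in NN (34.3% higher), 20.2% higher in TX, 59 shared and 0 for TX minus NN in limma, with 2411 at an unadjusted p under 0.05. Scaling with replicate 1 of NN at 1 h dropped gave 347 in NN (60.8% higher), 66.9% higher in TX, 177 for TX minus NN and 156 shared. The p threshold of 0.5 printed in the methods, with the log2 limit of 1, gave 1934 in NN (34.1% higher), 29.3% higher in TX, 2570 for TX minus NN and 713 shared. The cause of these moves was not tested.

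Leaving out each of the 8 libraries in turn gave 60 to 1494 calls in NN (25% to 38.4% higher), 1285 to 3122 in TX (19.8% to 27.2% higher), 0 to 1617 for TX minus NN, 32 to 624 shared and 1095 to 1792 for the mean response. Where 1 library of a group remained, it was assumed to vary like the other groups. NN counts were 60 without control 2, 120 without control 1, 360 without replicate 1 at 1 h and 1494 without replicate 2. TX fell to 1285 without replicate 1 at 1 h. TX minus NN was 0 without NN control 1 or 2 or TX replicate 2 at 1 h (1903, 2435 and 2466 at an unadjusted p under 0.05), 1 without TX replicate 1 at 1 h, 91 without TX control 1, 1617 without TX control 2 and 536 without NN replicate 2 at 1 h. The replicate block called 23 genes for TX minus NN. The replicate block with scaling called 1445 in TX (66.2% higher), 63.4% higher in NN and 252 shared.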
